A study of Homo sapiens with 12 samples.

Results

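The comparison described here set small RNA from HEK293T cells carrying a BCL2L11 degradation trigger against small RNA from cells carrying the same kind of GFP reporter with no trigger. It took in the 4 libraries labelled BCL2L11 or GFP of the 12 samples of the study, and all 1153 miRNAs listed in the deposited count table, of which 443 had enough reads to be tested. HEK293T, derived from human embryonic kidney and carrying the SV40 large T antigen, is an established line, and all groups were made in this single line. Cells received 2 µg of plasmid, and RNA was taken 48 h later. The GFP group carried the GFP control plasmid, and the BCL2L11 group carried a GFP reporter with a stretch of BCL2L11 in its 3′ untranslated region. A further group with a TRIM9 stretch in that position was not part of the comparison, but its 2 libraries helped to estimate the spread. Transfection was by polyethylenimine or by lipofectamine, with the reagent of each sample not given in the sources used here. RNA of 18 to 40 nt was sequenced, with 2 biological replicates per group. The trigger was read from a transfected plasmid, so its level is not that of the endogenous BCL2L11 transcript.

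In target-directed microRNA degradation, a target RNA that pairs with both the seed and the 3′ end of a miRNA exposes the Argonaute protein that carries it. The ubiquitin ligase receptor ZSWIM8 then recruits the ligase, Argonaute is destroyed and its miRNA is lost, often after its 3′ end has been lengthened or trimmed. BCL2L11 encodes BIM, a protein that promotes apoptosis, and its transcript has a site for miR-221-3p and miR-222-3p. The question of the comparison was whether that site, expressed from a plasmid, lowers these miRNAs.

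The paired miRNAs are shown because they share a seed but differ in the 3′ part, the stretch that a degradation trigger also pairs with. They are written 5′ to 3′ as in RefSeq (GRCh38.p14), with the seed, bases 2 to 8, in capitals.
miR-221-3p: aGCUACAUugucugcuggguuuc
miR-222-3p: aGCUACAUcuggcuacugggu
Their first 8 bases were identical, and after these the longest run they shared was 6 bases, CUGGGU. These were the only 2 of 2370 human mature names in the RefSeq table with this seed. miR-221-3p lies at chrX:45746180-45746202 and miR-222-3p at chrX:45747036-45747056, both on the minus strand. Their hairpins, MIR221 and MIR222, are 748 bases apart and lie within the host gene MIR222HG, which spans chrX:45745214-45770267.

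Libraries held 5232640 and 5266563 reads in GFP and 5018875 and 6091151 in BCL2L11. The single miRNA miR-148a-3p took between 57.7% and 63.1% of the reads of these 4 libraries, and the miRNAs left untested held at most 0.0278% of the reads in any library. Levels are given as CPM, counts per 1000000 reads after scaling by the trimmed mean of M-values (TMM), which sets libraries to the same middle miRNA. With this scaling the median log2 difference over the 443 miRNAs was 0.0013, with 222 miRNAs higher in BCL2L11 and the rest lower. The HEK293T label was compared with miRNAs of other cell types. The pluripotent miR-302 members had at most 4 reads in any of the 4 libraries, the neural miR-124-3p had 0, and the liver miRNA miR-122-5p had 21 to 37. Other members of such lists were well covered: miR-9-5p, also known from neural tissue, had 9067 to 10215 reads, and miR-126-3p, known from endothelium, had 4693 to 6128. The blood miRNA miR-451a had 2324 to 12877 reads, and is described with the replicates.

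miR-221-3p was lower in BCL2L11 and had the lowest p of all miRNAs tested. Its level was 3993 and 4459 CPM in the GFP libraries and 1828 and 1962 in the BCL2L11 libraries. Both BCL2L11 libraries lay below both GFP libraries, and the gap between groups was several times the gap within either. The group mean went from 4226 to 1895, a fall of 55.2%, with a log2 difference of -1.16 (SE 0.15, n = 2 per group). By edgeR's quasi-likelihood test with Benjamini-Hochberg adjustment over all miRNAs tested, the adjusted p was 0.0258. It was the only call among 443, which is 0.226%, against 5 with the replicate number as a block, and 6 miRNAs (1.35%) had an unadjusted p under 0.05 in edgeR. Total-count scaling (adjusted p = 0.357 by edgeR), a fit without the TRIM9 libraries (0.0878) and leaving out any single library (0.0733 to 1) ended the call, while the difference stayed between -1.25 and -1.07 under these.

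miR-222-3p, its seed partner, stood at 3948 and 4500 CPM in GFP and at 2521 and 3081 in BCL2L11. The groups again did not overlap. The difference was -0.59 (SE 0.18), or -33.7% in the mean level, and it did not pass (edgeR adjusted p = 0.995), though it was among the 6 with an unadjusted p under 0.05. With the replicate number as a block it passed, at -0.60 (edgeR adjusted p = 0.0189). Both BCL2L11 libraries lay below both GFP libraries in 70 of the 443 miRNAs (15.8%), so lack of overlap alone was common. Among the 26 miRNAs with a mean above 10000 reads, miR-221-3p had the largest difference and miR-222-3p the next, against a median size of 0.06 on the log2 scale.

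**Figure D1:**
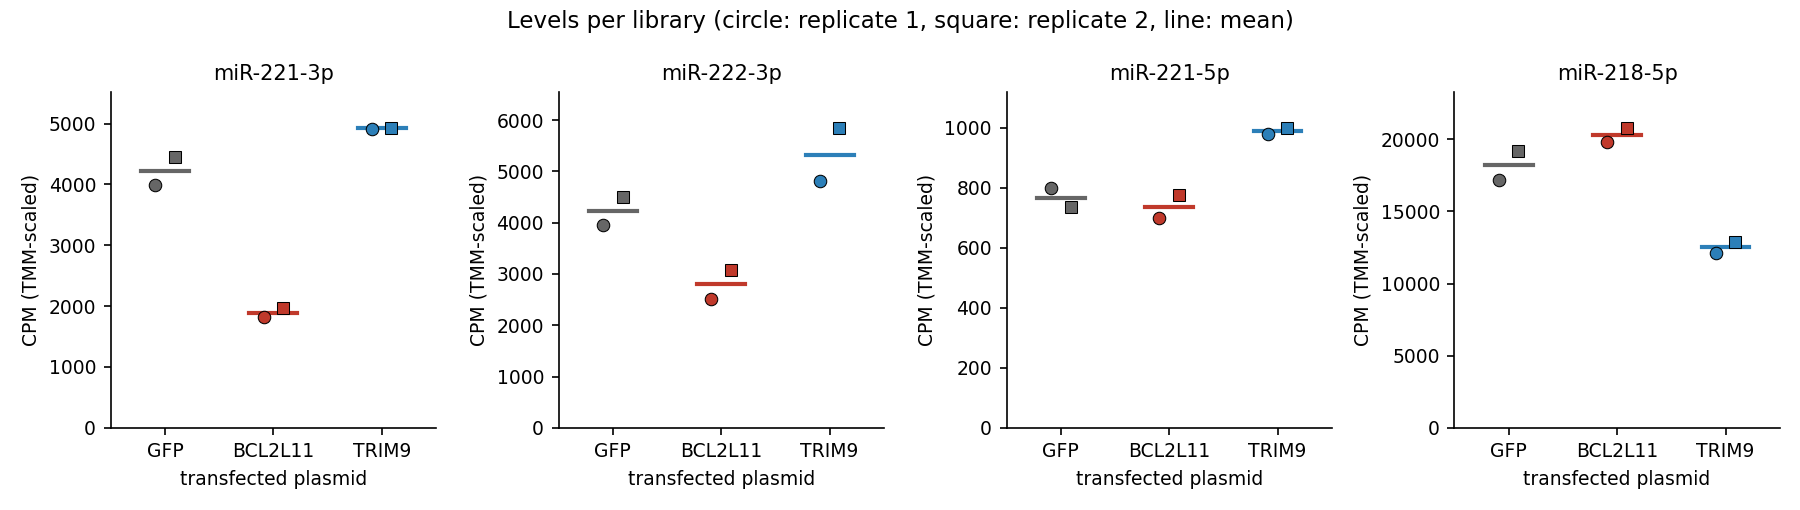
Level in CPM after TMM scaling (vertical axis, from 0) of 4 miRNAs in each library, by transfected plasmid (horizontal axis). Circles are replicate 1, squares replicate 2 and lines the mean of 2. miR-221-3p lies at 1828 and 1962 in BCL2L11 against 3993 and 4459 in GFP, and the groups overlap for miR-221-5p.

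In the plot of levels by plasmid, the strand opposite to miR-221-3p in its hairpin, miR-221-5p, had 799 and 736 CPM in GFP and 700 and 775 in BCL2L11. The groups overlapped, and the difference was -0.06 (SE 0.16). The opposite strand of miR-222-3p, miR-222-5p, was rare, with 10 and 23 reads in GFP and 15 and 22 in BCL2L11. Its difference of 0.18 (SE 0.54) had an error too wide to show a change of the size seen for miR-222-3p. miR-218-5p, the miRNA paired by the TRIM9 trigger, had 17198 and 19183 CPM in GFP and 19829 and 20779 in BCL2L11. Both BCL2L11 libraries lay just above both GFP libraries, with a difference of 0.16 (SE 0.14) that did not pass. Both BCL2L11 libraries lay above both GFP libraries in 55 of 443 miRNAs (12.4%).

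The TRIM9 libraries, which share the GFP controls and carry a trigger for another miRNA, had 4918 and 4928 CPM of miR-221-3p. For miR-222-3p they had 4806 and 5847. After TMM scaling all of these lay above the GFP libraries. The TRIM9-minus-GFP differences were 0.22 (SE 0.15) for miR-221-3p and 0.33 (SE 0.18) for miR-222-3p. The scaling factors of the TRIM9 libraries were 1.17 and 0.777. As a share of reads, miR-221-3p was 0.573% and 0.383% in TRIM9 against 0.420% and 0.474% in GFP. For miR-222-3p the shares were 0.560% and 0.455% in TRIM9 against 0.415% and 0.479% in GFP. By share, TRIM9 replicate 2 did not lie above both GFP libraries for either miRNA. BCL2L11 against TRIM9, a difference that uses no GFP level, gave -1.38 for miR-221-3p (edgeR adjusted p = 0.0076) and -0.93 for miR-222-3p (adjusted p = 0.158).

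The share of miRNA reads needs no TMM scaling, but it amounts to scaling by total counts, which put the median of all miRNAs at -0.10. Together, miR-221-3p and miR-222-3p made up 0.835% and 0.953% of reads in GFP and 0.466% and 0.464% in BCL2L11. The mean share was 0.894% ± 0.0837 in GFP and 0.465% ± 0.00171 in BCL2L11 (SD, n = 2 each), a change of -48.0%. After TMM scaling the summed level of the pair changed by -44.4%. The gap between the groups was larger than the gap within either. With 2 libraries per group, p = 0.333 is the smallest value an exact two-sided permutation test can give, so that test could not pass here.

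miR-221-3p was lower relative to miR-222-3p in the BCL2L11 libraries. The 2 miRNAs were read at near equal numbers in GFP, where miR-221-3p reads divided by miR-222-3p reads gave 1.01 and 0.991. In BCL2L11 the ratio was 0.725 and 0.637. The TRIM9 ratios were 1.02 and 0.843, so all other libraries lay above those of BCL2L11. The mean ratio was 1.001 ± 0.0145 in GFP and 0.681 ± 0.0625 in BCL2L11 (SD, n = 2 each), a gap larger than that within either group. Set against miR-221-5p, miR-222-3p had a ratio of 4.94 and 6.11 in GFP and 3.60 and 3.98 in BCL2L11. These groups did not overlap either.

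The ratio of the strands of a hairpin compares the loaded miRNA with a product of its own precursor. For miR-221 the ratio of 3p to 5p reads was 5.00 and 6.06 in GFP and 2.61 and 2.53 in BCL2L11. The TRIM9 libraries, at 5.01 and 4.93, lay near the GFP values. The log2 ratio fell by 1.10 (SE 0.16), and limma over all hairpins gave an adjusted p of 0.0154. It was the only call among 36 hairpins whose strands each had a mean of at least 100 reads, which is 2.78%, and the only one with an unadjusted limma p under 0.05. Without a trend in limma's spread estimate the adjusted p was 0.0559, in a limma fit without the TRIM9 libraries it was 0.0536, and leaving out BCL2L11 replicate 1, BCL2L11 replicate 2 or TRIM9 replicate 2 also ended the call (up to 0.0939).

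**Figure D2:**
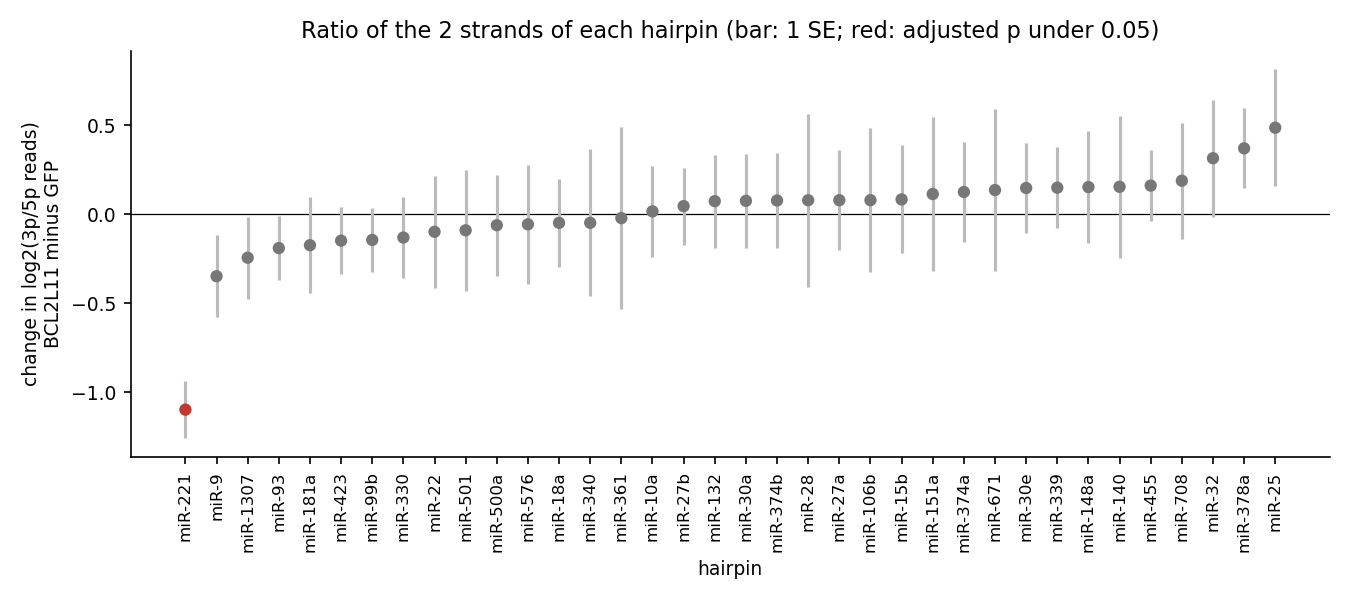
Change in the log2 ratio of 3p to 5p reads, BCL2L11 minus GFP (vertical axis), for each of 36 hairpins in order of the change (horizontal axis); bars are 1 SE from limma. miR-221 lies at -1.10, and the other hairpins lie between -0.35 and 0.49.

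The other 35 hairpins in the plot of strand ratios had changes with a median of 0.08 and a median size of 0.13, and none exceeded 0.5 in either direction. miR-9, a miRNA known from neural tissue, had the lowest of them at -0.35 (SE 0.23), with ratios of 0.0204 and 0.0202 in GFP and 0.0156 and 0.0163 in BCL2L11. miR-1307 followed at -0.24. In the other direction, miR-25, whose 3p strand is the loaded one, had ratios of 287 and 232 in GFP and 475 and 275 in BCL2L11, and a change of 0.49 (SE 0.33). miR-378a had a change of 0.37 (SE 0.23) with ratios of 120 and 108 in GFP and 148 and 146 in BCL2L11. None of these 4 passed in limma.

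Across all 443 miRNAs, the size of differences followed read depth. Below a mean of 100 reads, 216 miRNAs had a median size of 0.25 on the log2 scale and a median SE of 0.48, and 13 lay beyond 1. From 100 to 1000 reads, 128 miRNAs had a median size of 0.14, and miR-100-5p had the largest difference at -0.91. From 1000 to 10000 reads, 73 miRNAs had a median size of 0.07, and miR-451a had the largest at -0.77. Above 10000 reads the median SE was 0.17, and miR-221-3p was the only miRNA beyond 1. The 10 most abundant miRNAs had differences from -0.06 for miR-30d-5p to 0.16 for miR-218-5p. Among them, miR-10a-5p, a miRNA of the HOX gene clusters, was at 0.05 (SE 0.17), miR-151a-3p at 0.12 (SE 0.19) and miR-21-5p, widely expressed in growing cells, at -0.05 (SE 0.14).

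**Figure D3:**
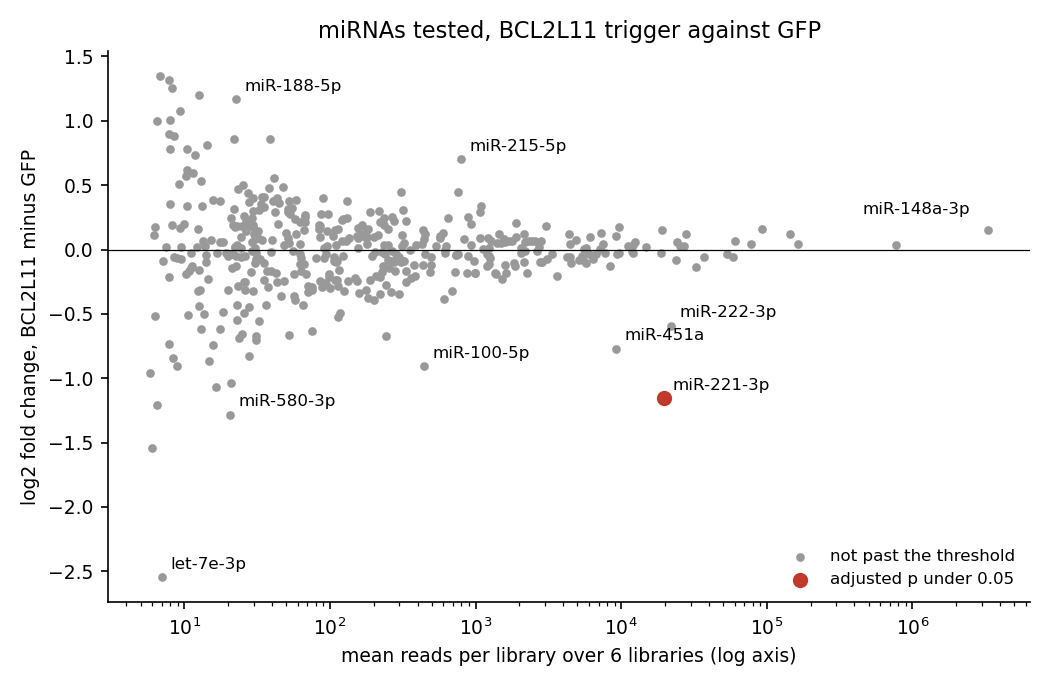
Log2 fold change, BCL2L11 minus GFP (vertical axis), against the mean reads per library over 6 libraries (horizontal log axis) for the 443 miRNAs tested. Differences spread widest at low reads. miR-221-3p, in red, passed the threshold at -1.16.

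In the plot of differences against depth, 5 further miRNAs had an unadjusted p under 0.05 in edgeR without passing adjustment, among them miR-222-3p. The best covered of the others was miR-215-5p, a miRNA known as induced by p53, with 116 and 115 CPM in GFP and 181 and 194.1 in BCL2L11. The groups did not overlap, and the difference was 0.70 (SE 0.22, edgeR adjusted p = 0.995, or 0.0331 with the replicate block). It is shown with its relative miR-192-5p, which has the same seed, because the pair is nearly identical.
miR-215-5p: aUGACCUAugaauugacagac
miR-192-5p: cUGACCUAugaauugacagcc
Counted from the 5′ end, the substitutions from miR-215-5p to miR-192-5p are A1C and A20C. miR-192-5p had 4488 and 4601 reads in GFP and 4662 and 4586 in BCL2L11, with a difference of 0.04 (SE 0.16).

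The other 3 were rare. miR-580-3p had 33 and 34 reads in GFP and 15 and 12 in BCL2L11, a difference of -1.28 (SE 0.41). miR-188-5p, of an X-linked cluster, had 11 and 19 reads in GFP and 30 and 37 in BCL2L11, a difference of 1.17 (SE 0.44). let-7e-3p, the strand opposite to let-7e-5p, had 11 and 14 reads in GFP and 4 and 0 in BCL2L11. Its fitted difference of -2.55 (SE 1.01) rested on fewer than 10 reads in BCL2L11 and moved to -6.63 without BCL2L11 replicate 1.

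The miRNAs next in order of p did not pass either. On the lower side were miR-100-5p (-0.91), miR-301b-5p (-1.07), miR-4517 (-1.54), miR-550a-3p (-1.03), miR-365b-3p (-0.49) and miR-454-5p (-0.70). Then came miR-9-3p (-0.38) and miR-1271-5p (-0.35). On the higher side were miR-3679-5p (1.26), miR-1257 (1.202), miR-3173-5p (0.86), miR-1226-3p (1.32), miR-381-3p (0.86) and miR-1299 (0.45), followed by miR-5000-3p (1.07), miR-3177-3p (0.40), miR-4504 (0.56) and miR-5585-3p (0.88). Against the TRIM9 libraries, miR-4517, miR-1257, miR-3173-5p, miR-5000-3p and miR-3177-3p had the opposite sign. Of the higher ones miR-1299 had the most reads, with 637 and 798 in GFP and 845 and 1089 in BCL2L11.

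Some miRNAs were lower in BCL2L11 replicate 1 than in BCL2L11 replicate 2 or GFP. miR-451a, an erythroid miRNA cut by Argonaute 2 without Dicer, had 11431 and 12877 reads in GFP but 2324 and 11951 in BCL2L11. Only BCL2L11 replicate 1 lay apart among these 4, and TRIM9 replicate 1, with 5558 reads against 11386 in replicate 2, was also low. The difference of -0.77 (SE 0.70) was -1.23 with the replicate block (edgeR adjusted p = 0.0404) and became -0.03 without BCL2L11 replicate 1.

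The same library was low in other miRNAs. miR-486-5p, another erythroid miRNA, had 715 and 713 reads in GFP and 352 and 739 in BCL2L11, and its difference of -0.38 became 0.04 without that library. miR-143-3p, of smooth muscle and fibroblasts, had 258 and 344 reads in GFP and 74 and 302 in BCL2L11, a difference of -0.68 that became 4.9e-05. miR-363-3p had 85 and 105 in GFP and 27 and 95 in BCL2L11, a difference of -0.63 that became -0.0055. Replicate 2 of BCL2L11 lay within or close to the GFP range for each of these 3. TRIM9 replicate 1 was also below TRIM9 replicate 2 in each of them, at 71.8 against 161 CPM for miR-486-5p, 34.0 against 64.5 for miR-143-3p and 7.44 against 22.6 for miR-363-3p.

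miR-100-5p behaved in part like these. It had 95.4 and 113 CPM in GFP and 32.4 and 78.6 in BCL2L11, so both BCL2L11 libraries were lower but apart from each other. Its difference of -0.91 (SE 0.42) was -1.02 with the replicate block (edgeR adjusted p = 0.017) and became -0.40 without BCL2L11 replicate 1 and -1.69 without BCL2L11 replicate 2. It is shown with miR-99a-5p, its near copy, because reads of one could be counted for the other. The substitution from miR-100-5p to miR-99a-5p is A16U.
miR-100-5p: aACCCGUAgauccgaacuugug
miR-99a-5p: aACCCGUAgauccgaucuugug
miR-99a-5p had 24686 and 29323 reads in GFP and 26153 and 31883 in BCL2L11, a difference of 0.12 (SE 0.21).

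**Figure D4:**
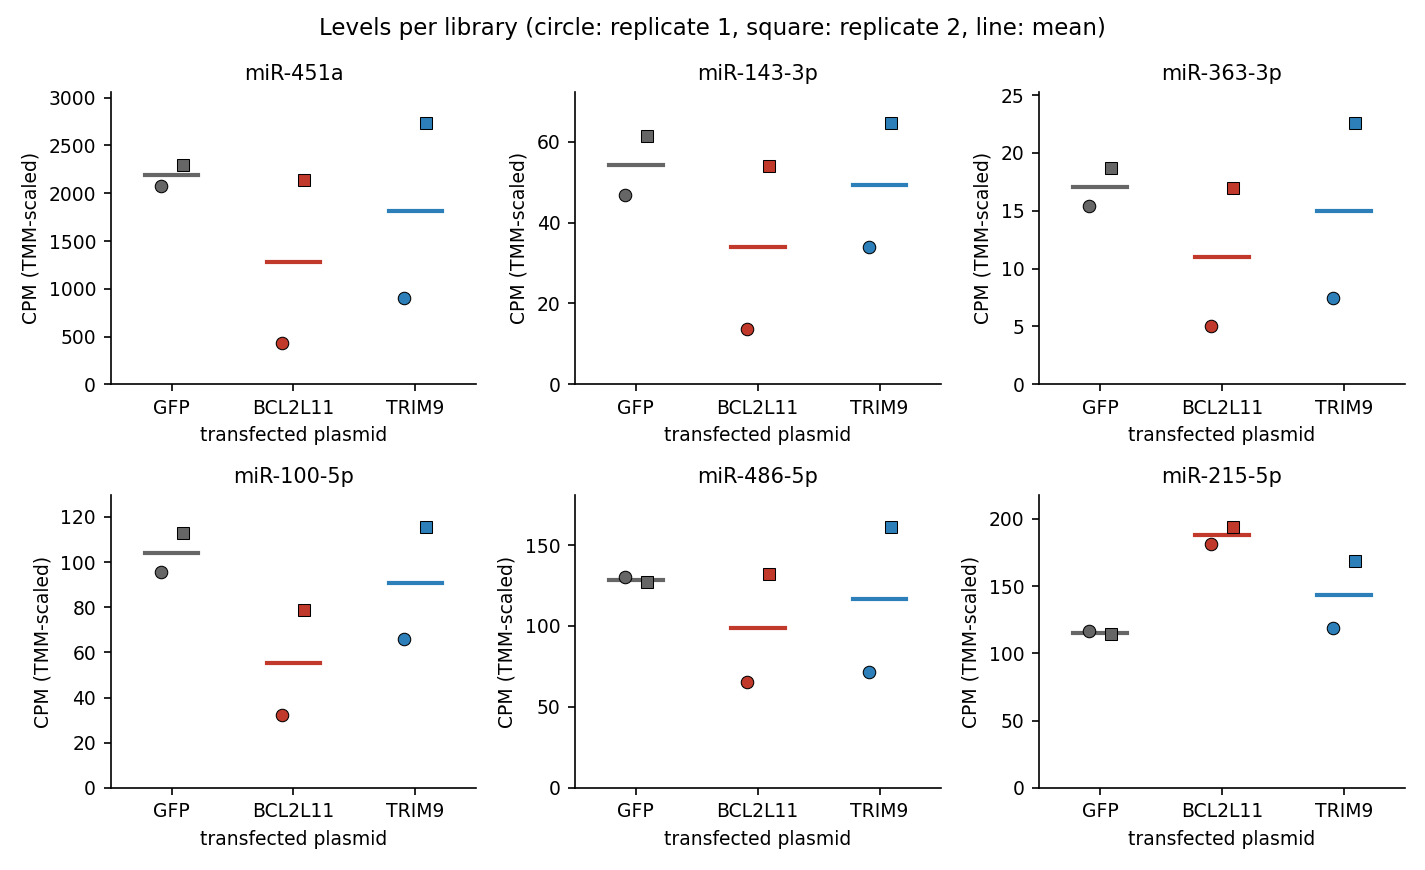
Level in CPM after TMM scaling (vertical axes, from 0) of 6 miRNAs in each library, by transfected plasmid (horizontal axis). Circles are replicate 1, squares replicate 2 and lines the mean of 2. BCL2L11 replicate 1 lies lowest for miR-451a, miR-143-3p, miR-363-3p, miR-100-5p and miR-486-5p, and both BCL2L11 libraries lie above the others for miR-215-5p.

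As the plot of these 6 miRNAs by library shows, miR-215-5p did not follow that pattern. Among 280 miRNAs with a mean of at least 50 reads, the BCL2L11 replicates differed by more than 1 on the log2 scale in 15, of which 10 were lower in replicate 1. The GFP replicates differed that much in 9. For the miRNAs described above, miR-221-3p levels differed little between the BCL2L11 replicates, and its difference was -1.13 within replicate 1 and -1.18 within replicate 2. Whether the composition of BCL2L11 replicate 1 plays a part in the other differences was not tested.

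miRNAs that share a seed recognise the same kind of site, and such families were set beside the miR-221/222 pair. The RefSeq table gave 1 mature sequence for 397 of the 443 miRNAs. Among these, 10 seeds had at least 2 members with a mean of 1000 reads or more. This count was not complete for abundant miRNAs. It did not hold miR-30d-5p, or a family with miR-10a-5p and miR-10b-5p. Of the 10 seeds, that of miR-221/222 had the lowest mean difference, -0.87. The miR-19 seed came next at -0.21, with miR-19a-3p at -0.23 and miR-19b-3p at -0.19. The highest was the seed of miR-148a-3p at 0.22.

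Other miRNAs reported to be cleared by targets did not pass. Of 10 with published cellular or viral triggers, 5 were lower and 5 higher, with a median of -0.0037. miR-7-5p, cleared by the long noncoding RNA Cyrano, had 846267 and 686671 reads in GFP and 690344 and 863860 in BCL2L11. It ranged as widely within groups as between them, with a difference of 0.03 (SE 0.18). miR-29b-3p, paired by a trigger in NREP, had at most 132 reads in GFP and overlapping groups, with a difference of 0.24 (SE 0.40).

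miRNAs reported to repress BCL2L11 through other sites were also listed. None of the 11 passed, and 7 were lower and 4 higher, with a median of -0.04. Most belong to the miR-17-92 cluster and its paralogues, growth-promoting miRNAs. Members of the cluster and its paralogues ranged widely in level in this line. Of these, miR-106a-5p, miR-20b-5p and miR-18b-5p had at most 8 reads in any library. miR-92a-3p had 86113 and 68827 reads in GFP and 82128 and 75390 in BCL2L11, a difference of 0.04 (SE 0.17). miR-19a-3p had 1551 and 1771 in GFP and 1232 and 1569 in BCL2L11, and the groups did not overlap in CPM, with a difference of -0.23 (SE 0.21). The 10 tested members of the cluster and its paralogues had a median of -0.11, and 0 passed.

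The remaining families had 0 calls without the replicate block, against 1 of 443 over all miRNAs. The 9 let-7 members, regulators of growth genes, had a median of 0.04, with 3 lower and 6 higher. The 3 members of the miR-148a-3p family, regulators of DNMT1, were all higher, at 0.15 for miR-148a-3p, 0.18 for miR-148b-3p and 0.34 for miR-152-3p, and miR-148b-3p alone had no overlap between groups. The first of these was -0.12 against TRIM9 and -0.01 without BCL2L11 replicate 2, and miR-152-3p was -0.43 without BCL2L11 replicate 1. The 7 miRNAs of the miR-10, miR-99/100 and miR-125 families had a median of -0.04. Within them miR-125a-5p (-0.32, SE 0.20) and miR-125b-5p (-0.32, SE 0.25) were lower in both BCL2L11 libraries, as was miR-100-5p, a lack of overlap that 15.8% of all miRNAs tested also had. The 7 of the miR-15/16 family had a median of -0.03 and the 8 of the miR-29 and miR-30 families -0.05.

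The 6 tested miRNAs known as p53-induced had a median of 0.06. miR-34a-5p, the best known of them, had 984 and 655 reads in GFP and 1277 and 644 in BCL2L11, a difference of 0.25 (SE 0.42) with overlapping groups. miR-194-5p, which is made with miR-192-5p or miR-215-5p, was at -0.06 (SE 0.26). The 10 tested members of the cluster of miR-188-5p had a median of 0.03, with miR-188-5p at 1.17 and the most abundant member, miR-532-5p, with 7311 to 10912 reads, at 0.10 (SE 0.24). Of other cell-type miRNAs, miR-126-3p of endothelium was at -0.08 (SE 0.19) and its opposite strand miR-126-5p, with 9 to 18 reads, at 0.53 (SE 0.55). For miR-126-5p both BCL2L11 libraries lay above both GFP libraries in CPM, as in 12.4% of all miRNAs tested. However, GFP replicate 2 and BCL2L11 replicate 2 each had 12 reads of it. None of these passed, nor did miR-1-3p of muscle at -0.32 (SE 0.27) or miR-200c-3p of epithelium at -0.22 (SE 0.24).

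The summed reads of the blood list were 12159 and 13594 in GFP and 2677 and 12702 in BCL2L11, nearly all from miR-451a. The defining myeloid miRNA miR-223-3p had 1 and 0 reads in GFP and 0 and 2 in BCL2L11. The T and B cell miRNA miR-150-5p had at most 1 in any GFP or BCL2L11 library, but 158 and 2 in the TRIM9 libraries. The epithelial list summed to 203 and 228 in GFP and 153 and 209 in BCL2L11. The part of these cell-type miRNAs in the differences above was not tested.

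The authors' deposited isoform table for BCL2L11 gave values in the opposite direction for the paired miRNAs. It lists 1328 entries by miRNA, with what an entry counts, and its control, not given in the sources used here. In the authors' deposited table the value for miR-221-3p was 1.67 on the log2 scale (SE 0.12, adjusted p = 2.84e-39), which is 3.18-fold. In the same deposited table from the authors miR-222-3p was at 1.07 (SE 0.09, adjusted p = 1.76e-32), which is 2.095-fold. They were the only 2 of 1328 entries past an adjusted p of 0.05 in the authors' deposited table, which is 0.151%.

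Their opposite strands were not called. In the authors' deposited isoform table miR-221-5p was at 0.01 (SE 0.22) and miR-222-5p at 0.36 (SE 0.75). The mean signal was 344 for miR-221-3p and 570 for miR-222-3p in the authors' deposited isoform table, against 19371 and 21697 in the authors' deposited count comparison. By that mean signal, miR-222-3p had rank 2 and miR-221-3p rank 5 of all entries in the authors' deposited isoform table. The mean signal is pooled over libraries, so these ranks include the higher values in BCL2L11. miR-148a-3p had rank 9 there, with 206 against 3285820 in the authors' deposited count comparison.

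**Figure D5:**
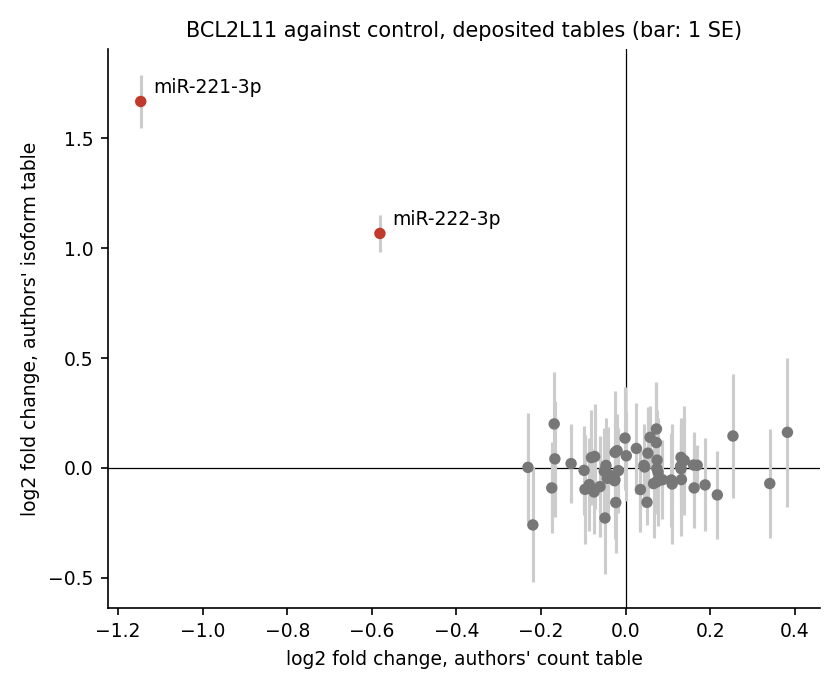
Log2 fold change for BCL2L11 in the authors' isoform table (vertical axis; bars are 1 SE) against that in the authors' count table (horizontal axis), for 59 entries with a mean signal of at least 50 that were found in both tables by name. miR-221-3p and miR-222-3p, in red, lie at 1.67 and 1.07 by isoform and at -1.15 and -0.58 by count, and the other entries lie within 0.26 of 0 by isoform.

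In the plot of the isoform table against the count table, no other well covered entry came near the pair. Of the 66 entries with a mean signal of at least 50 in the authors' deposited isoform table, the other 64 lay between -0.26 for miR-19a-3p and 0.20 for miR-99b-3p, with a median of -0.01. Of these, 29 were higher and 35 lower. miR-218-5p, the entry of highest pooled mean signal, was at 0.01 (SE 0.09) in the authors' deposited isoform table for BCL2L11. Of the other miRNAs with a low p by count, miR-215-5p was at 0.38 (SE 0.38) and miR-100-5p at -0.40 (SE 0.43) in the authors' deposited isoform table.

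The authors' deposited isoform table for TRIM9 gave 0.07 (SE 0.13) for miR-221-3p and 0.18 (SE 0.09) for miR-222-3p, and 2.55 for miR-218-5p. The authors' deposited count comparison for BCL2L11 gave -1.15 (SE 0.21, adjusted p = 3.69e-05) for miR-221-3p and -0.58 (SE 0.23) for miR-222-3p. In it miR-221-3p was the only 1 of 1152 entries past 0.05 in the authors' deposited table, which is 0.0868%.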

How the data were processed

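Small RNA reads were measured in 6 libraries, 2 per group. The submitters' processing notes name hg38 as the genome and, as tools, STAR, cutadapt 3.4, DESeq2 1.20.0 and StringTie 2.1.3. The deposited count table gives reads per mature miRNA, not normalised. The authors' deposited comparison tables hold, per the file headers, a baseMean signal (a mean of normalised counts), its log10, a log2 fold change with its SE, a test statistic (a score), and a p-value with its adjusted value. Their control group is not named in the sources used here.

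Counts went into edgeR 4.0.16 (filterByExpr, TMM, glmQLFit, glmQLFTest, group only, all 6 libraries, R 4.3.3), with Benjamini-Hochberg adjustment and a threshold of 0.05. Lack of overlap was judged on TMM-scaled CPM. Strand ratios, log2 of (3p reads + 0.5) over (5p reads + 0.5), were fitted in limma 3.58.1 with a trend on the rarer strand. Both fits were run on simulated data whose changes were larger than that of miR-221-3p, so the runs do not show power or error at its size. DESeq2 1.42.0 was an alternative. Mature sequences came from RefSeq (GRCh38.p14). The members, the 21 miRNA lists and the tests were chosen with earlier results of these data known. Named were both strands of miR-221 and miR-222, the miRNAs of lowest p in each direction, up to 4 per list, and hairpins and isoform entries by lowest p. Named outside that rule, after their values were seen, were miR-532-5p, miR-99b-3p and rare cell-type miRNAs. Poly-A data were not used here. The labels state no pairing, and the main fits used none. Deviations from group means correlated by the replicate number in the titles at 0.36 (GFP and BCL2L11), 0.19 (GFP and TRIM9) and 0.25 (BCL2L11 and TRIM9). A fit with that number as a block was therefore an alternative, and is given where it changes a call. Replicates did not hold identical values. A chi-square between replicates, divided by its degrees of freedom, was 84.1 in GFP, 82.3 in BCL2L11 and 289 in TRIM9. The TRIM9 libraries, which helped to estimate the spread, thus differed most from each other. The total count per library, 5018875 to 6091151 reads, limits precision for rare miRNAs.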

Additional observations from a re-analysis of the deposited data

How the results depend on the processing

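The number of miRNAs called was 1 with DESeq2's size factors, without a filter on low counts, with at least 100 counts in 2 libraries, in DESeq2 and with TRIM9 as control. By edgeR it was 0 with total counts (5 at an unadjusted p under 0.05), 0 in the fit of the GFP and BCL2L11 libraries only (7 unadjusted), and 0 to 0 leaving out each library (4 to 8 unadjusted). miR-221-3p was -1.25 with total counts and -1.16 in the fit of those 2 groups, and -1.22 to -1.07 leaving out each library. Total counts put the median of all miRNAs at -0.10. For strand ratios the number called in limma was 0 without a trend, 0 with the 2 groups only, and 0 to 1 leaving out each library. The miR-221 ratio changed by -1.10 without a trend and by -1.10 with the 2 groups only, and by -1.24 to -0.96 leaving out each library. The cause of these changes was not tested.

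With a replicate block, edgeR called 5 miRNAs: miR-221-3p, miR-222-3p (-0.60, adjusted p = 0.0189), miR-451a (-1.23), miR-215-5p (0.70) and miR-100-5p (-1.02). The pairing changed no other call.

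For miR-222-3p, leaving out each library gave -0.75 to -0.45. Over 47 other results and their alternatives, 596 of 626 values kept direction and call, and 27 in 18 results changed sign. None of those that changed sign had passed. With TRIM9 as control the values were -1.02 for miR-222-5p, 0.89 for miR-4517, -0.26 for miR-1257, -0.027 for miR-3173-5p, -0.31 for miR-5000-3p, -0.0022 for miR-3177-3p, -0.12 for miR-148a-3p, -0.025 for miR-29b-3p, -0.091 for miR-99a-5p, and for the strand ratios 0.028 for miR-1307 and -0.019 for miR-32. With total counts miR-192-5p was -0.042. Leaving out each library, the ranges were miR-221-5p -0.14 to 0.018, miR-222-5p -0.27 to 0.88, -0.014 to 0.29 for miR-148a-3p, -0.15 to 0.028 for miR-30d-5p, -0.084 to 0.58 for miR-29b-3p, -0.0087 to 0.24 for miR-99a-5p, -0.43 to 0.96 for miR-152-3p, -1.98 to 4.9e-05 for miR-143-3p, -0.98 to 0.042 for miR-486-5p and -0.23 to 0.11 for miR-126-3p.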

Other observations

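Among miRNAs too rare to test, 27 were read in both BCL2L11 libraries and in neither GFP library, and 18 in both GFP libraries and neither BCL2L11 library. None of these had more than 8 reads in a library. miR-3177-5p, with the most, had up to 8 reads in BCL2L11, and was chosen after its values were seen.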
